A study of Mus musculus with 8 samples.

Results

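Interferon-induced genes (8 in number: Ifi27, Ifitm2, Ifitm3, Ifit1, Ifit3, Isg15, Bst2 and Irf7) were followed through the cells of the mouse subventricular zone, the stem cell niche along the lateral ventricle, with attention to the cells that are not microglia. They are 8 of 27393 genes with at least 1 transcript in the data, were picked by name, and were all found under those symbols. Expression was measured by Drop-seq, a droplet method that tags each captured transcript with a unique molecular identifier (UMI). Every animal carried the CGD transgene on a C57BL/6 background, in which Nestin sequences, active in neural stem cells, drive CreERT2 (a Cre recombinase switched on by tamoxifen), H2B-eGFP (a nuclear green fluorescent protein) and the diphtheria toxin receptor from 1 transcript with P2A spacers. There were 8 libraries, 1 per group. At 2 months of age cells were sorted as GFP high, GFP low, GFP negative, or taken without regard to GFP (unsorted), and a separate age series took viable cells irrespective of GFP from animals aged 2 weeks, 2 months, 6 months or 12 months. The labels do not give the number of animals in a library or the line chosen among the founders, and no tamoxifen or toxin treatment is named. With 1 library per group there was no replicate, no test was made and no p-value is given. Every interval below is a 95% counting interval and leaves out differences between animals and preparations. Intervals of levels and ratios also treat each UMI as independent. They leave out differences between cells and are too narrow where few cells hold many of the UMIs.

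Interferons are secreted proteins that bind receptors on the cell surface and, through Janus kinases, activate STAT transcription factors. Complexes of STAT and IRF factors then switch on a large set of interferon-stimulated genes, whose products block steps of virus entry, replication and release. In brain, microglia and vessel cells are known for strong responses of this kind, and neural stem cells are known to keep some interferon-stimulated genes active without infection.

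Upstream sequences of the genes were examined first, since IRF factors bind pairs of GAAA, and these stretches are shown because they hold such pairs close to the start sites. The motif searched was GAAANNGAAA, which reads TTTCNNTTTC on the other strand, in windows from 250 bases before to 50 bases after the RefSeq start (build GRCm38.p6). A window was found for 7 of the members, and 6 of these 7 held the motif, against 3.99% of all 27025 genes with a window. By window the share was 3.44% of 32851. Of 51 other interferon pathway genes with a window, 18 held the motif (35.3%). Capitals mark the motif, and each line reads 5′ to 3′ on the strand of the gene.
Isg15: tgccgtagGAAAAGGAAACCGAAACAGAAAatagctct
Bst2: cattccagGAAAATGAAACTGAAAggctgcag
Ifitm2: accaacagGAAAAGGAAAttgctaga
Ifitm3: agGAAAAGGAAActtctgaGAAACCGAAA
Ifit1: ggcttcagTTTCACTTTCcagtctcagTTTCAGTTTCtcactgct
Ifit3: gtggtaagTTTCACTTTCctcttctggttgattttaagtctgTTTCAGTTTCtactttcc

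Positions given here are those of the printed stretches, lower-case flanks included. Isg15 held 3 overlapping matches in a stretch from 86 to 49 bases before its start (chr4:156200867-156200904, minus strand), the matches themselves from 78 to 57 bases before it. Bst2 held 2 overlapping matches in chr8:71537579-71537610 (minus strand), and Ifitm2 held 1 in chr7:140955990-140956015 (minus strand). The 2 matches of Ifitm3 lay after the start, inside the first 29 transcribed bases (chr7:141010716-141010744, minus strand). Ifit1 and Ifit3, both on the plus strand of chromosome 19, each held 2 separate matches (chr19:34640777-34640821 and chr19:34583365-34583424). The window of Irf7 (chr7:141266375-141266674, minus strand) held no such letters. Ifi27 (chr12:103434211-103440239 in the GENCODE annotation of GRCm38, plus strand, protein coding) had no window. A match describes the letters only.

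Of 11017 barcodes, 9100 held at least 400 UMIs and were used. The sort experiment gave 6600 of the barcodes, the number its design text states, of which 5511 were used. Totals ran from 750672 UMIs (12 months) to 2633834 (GFP low), and the median per cell from 722.5 UMIs (GFP negative) to 1242 (2 weeks). Cells were classed by sums of marker UMIs that held none of the interferon genes, which gave 128 endothelial, 2591 astrocyte-like, 1950 oligodendrocyte, 550 dividing progenitor and 799 microglial cells, and left 12.9% unclassed. Astrocyte-like includes quiescent stem cells, which share its markers. The endothelial markers summed to 25013 UMIs per 1000000 (CPM) in endothelial cells and 173 in other cells, and all 13 were detected there. Microglial markers summed to 47595 to 60106 CPM in microglia, and to at most 587 in a library's endothelial, astrocyte-like, oligodendrocyte or progenitor cells. In the last 500 bases of their transcripts, Ifitm2 shared 22.9% of stretches of 64 bases, the read length, with Ifitm3 or predicted genes, Ifit3 12.1% with its copy Ifit3b and Ifitm3 3.43% (with Ifitm1, Ifitm2 and Gm7676 among others), so that counts of these 3 genes are less certain. Only 2 barcodes were shared between libraries. Libraries also differed in sex: the 2 weeks library held 0 Xist UMIs and 417 of 4 Y-linked genes, the 2 months library 923 Xist UMIs and 0 Y-linked, the 12 months library 1006 and 1, and the other 5 held both.

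Levels are UMIs of a gene per 1000000 UMIs of the class in a library (CPM), given for libraries with at least 20 cells of the class. Outside microglia, the summed level of the 7 genes other than Ifi27 was highest in cells of the vessel wall and of the ventricle lining, intermediate in astrocyte-like cells and low in progenitors, oligodendrocytes, oligodendrocyte precursors and mature neurons. In endothelial cells, which line the vessels, it was 2503 CPM in the unsorted library (38 cells, 1966 to 3143), 3193 at 6 months (25 cells, 2363 to 4222) and 3897 at 12 months (31 cells, 3141 to 4779). Pericytes and smooth muscle, which wrap the vessels, had 962 in GFP negative and 1977 in unsorted. Microglia, the resident macrophages, had a median of 484 CPM over 6 libraries (132 at 2 weeks to 1012 at 6 months). Astrocyte-like cells had a median of 359 CPM over 8 libraries. By gate they had 538 (GFP high), 350 (GFP low), 0 (GFP negative, 28 cells, up to 201) and 290 (unsorted), and by age 368 (2 weeks), 563 (2 months), 551 (6 months) and 224 (12 months). The ranges of microglia and astrocyte-like cells overlapped, and neither reached the lowest endothelial library. Dividing progenitors had a median of 104 CPM (32.8 to 405), neuroblasts, the young neurons, 57.8 (0 to 248), oligodendrocytes 41.9 (0 to 74.1) and mature neurons 9.58 (0 to 20.3), each range overlapping that of its neighbour in this order. Oligodendrocyte precursors, with at least 20 cells at 2 weeks only, had 11.2 CPM (92 cells, 2 UMIs).

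Ifi27 followed that order only in part. This gene encodes a small membrane protein reported at mitochondria and the nuclear envelope. Its median was 262 CPM in astrocyte-like cells, 282 in oligodendrocytes, 278 in dividing progenitors, 226 in microglia and 171 in neuroblasts, and the ranges of all 5 classes overlapped. Oligodendrocytes thus had Ifi27 at a level within the astrocyte-like range while the other 7 genes were nearly absent from them. Endothelial cells had 575 CPM in unsorted, 261 at 6 months and 551 at 12 months, so that the 6 months value lay inside the range of the other classes. Pericytes and smooth muscle had 206 CPM in GFP negative and 338 in unsorted. At the ends the order held, with 1179 CPM in GFP high ependymal cells as the highest value. Mature neurons had a median of 22.5 CPM over 4 libraries, with 134 at 2 months (7 UMIs) as the highest.

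The other members were taken in turn by role. Among the membrane proteins that block virus entry, Ifitm3 was at 1173 to 2160 CPM in endothelial cells, against medians of 174 in astrocyte-like cells (0 to 291), 148 in microglia (13.9 to 380), 52.1 in dividing progenitors (0 to 220) and 8.81 in oligodendrocytes (0 to 37.4). Its relative Ifitm2 was at 169 to 406 CPM in endothelial cells, 36 in astrocyte-like cells (0 to 75, highest at 2 weeks), 20.6 in dividing progenitors (0 to 57.8), 15.3 in microglia (0 to 41.3) and 0 in oligodendrocytes (0 to 7.21). For both genes the endothelial range stood clear of these 4 classes, and the ranges of astrocyte-like cells, microglia and progenitors overlapped. Other classes were as high: Ifitm3 was at 1229 CPM and Ifitm2 at 530 in unsorted pericytes and smooth muscle, and Ifitm3 at 2349 in GFP high ependymal cells. Ifit1, which binds the ends of foreign RNA, was at 169 to 381 CPM in endothelial cells and 24.4 in astrocyte-like cells (0 to 69.3), and microglia held 2 of its UMIs in all. Its partner Ifit3 was at 65.2 to 212 CPM in endothelial cells, 43.5 in microglia (0 to 110) and 41 in astrocyte-like cells (0 to 78.5), with overlapping ranges. In oligodendrocytes Ifit1 had a median of 2.2 CPM and Ifit3 of 1.77, and in dividing progenitors 11.6 and 0. The ubiquitin-like modifier Isg15 was at 271 to 912 CPM in endothelial cells, 39.8 in microglia (19 to 105), 16.4 in astrocyte-like cells (0 to 52.3), 8.68 in dividing progenitors (0 to 28.4) and 0 in oligodendrocytes (0 to 8.81). Bst2, a tether that holds budding virions on the cell surface, was at 338 to 587 CPM in endothelial cells and 240 in microglia (83.4 to 411), whose ranges overlapped, then at 61 in astrocyte-like cells (0 to 102), 7.1 in dividing progenitors (0 to 80.9) and 4.68 in oligodendrocytes (0 to 22.8). Irf7, the factor that amplifies interferon genes, had 59 UMIs in all cells, with medians of 33.8 CPM in endothelial cells (0 to 169), 15.5 in microglia (0 to 31.6) and 1.98 in astrocyte-like cells (0 to 10.2), which is too few to order the classes.

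Shares of cells were compared after thinning each cell to 400 UMIs, with mature neurons as the class taken to show the background of free RNA. After thinning, 8.47% of unsorted astrocyte-like cells held an Ifi27 UMI (17.8% before, median depth 817.5 UMIs), as did 7.96% of unsorted oligodendrocytes (20.1% before, median 1140). No mature neuron of the unsorted library did (0 of 51, up to 6.98%, 1.96% before thinning, median 1078 UMIs). At 2 months mature neurons did hold Ifi27, with 2.7% of 37 cells after thinning (13.5% before, median 677). Ifitm3 was found in 34.2% of unsorted endothelial cells after thinning (52.6% before, median 764.5), 4.92% of astrocyte-like cells (10.1% before, median 817.5) and no mature neuron (0 of 51, up to 6.98%).

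**Figure D1:**
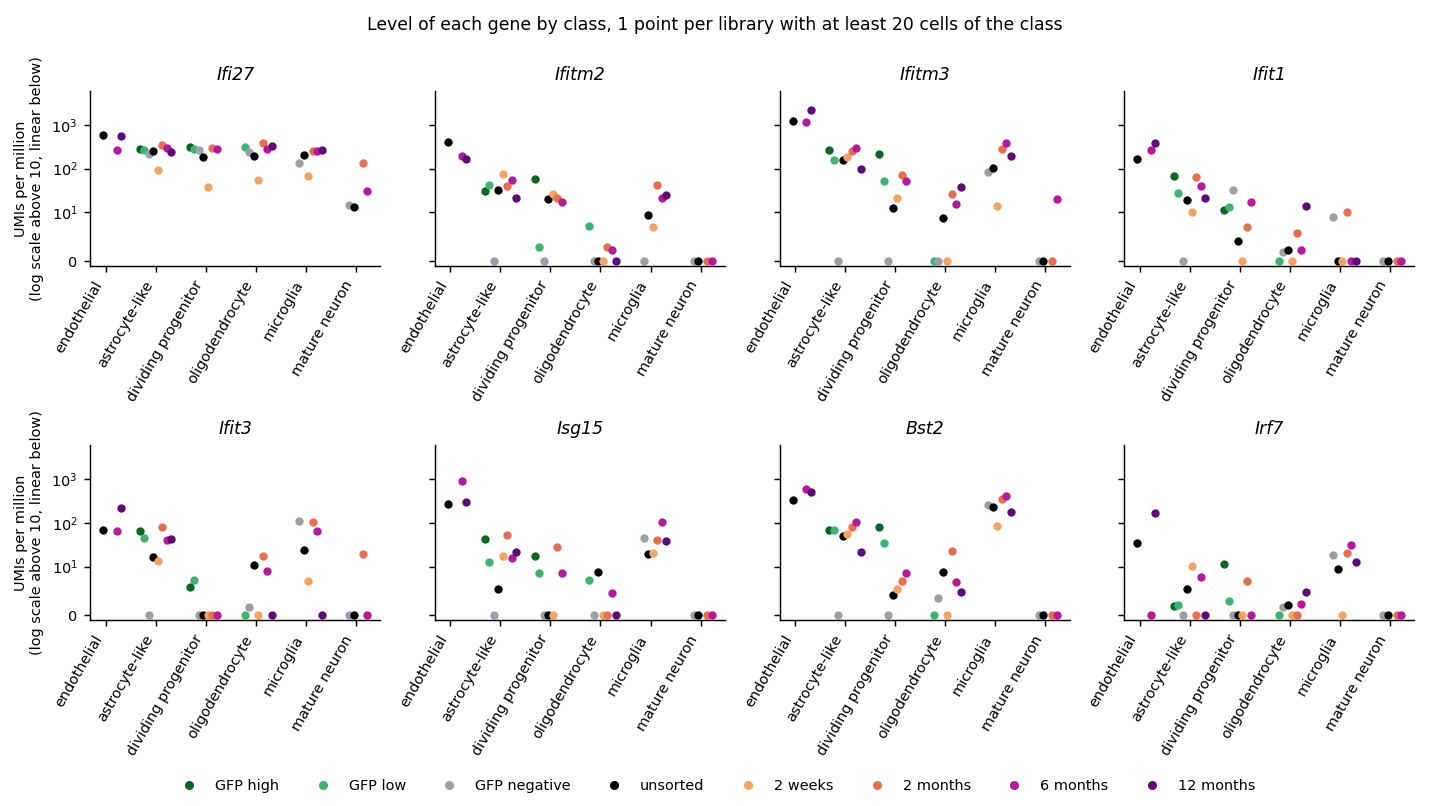
Level of each of the 8 genes in 6 cell classes, in CPM (log scale above 10, linear below), with 1 point per library holding at least 20 cells of the class. Ifi27 lies between 37.1 and 575 in all classes but mature neurons, while Ifitm3, Isg15 and Bst2 step down from endothelial cells to oligodendrocytes.

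Within the unsorted library, endothelial cells were set against astrocyte-like cells. A gene was called higher or lower where the ratio was at least 2-fold, its interval left out 1 and the groups together held at least 20 UMIs. All 4 members with enough UMIs were called higher, where 8.13% of all genes tested were. Ifitm3 was at 1218 against 161 CPM, a ratio of 7.55 (4.84 to 11.6). Ifitm2 was at 406 against 32.8 (ratio 12.4, 5.08 to 30.1), and Bst2 at 338 against 49.2 (ratio 6.87, 2.83 to 15.7). Ifi27 had the smallest of the 4 ratios, 2.26 (1.26 to 3.82). Isg15 was at 271 against 5.47 CPM but rested on 10 UMIs in all (ratio 49.5, 9.87 to 478). The same comparison gave 2 called of 3 at 6 months, where 9.42% of all genes were called higher (Ifitm3 4.03-fold, Bst2 5.73-fold), and Ifi27 was 0.895-fold (0.232 to 2.49). At 12 months 2 of 2 were called (Ifitm3 22.5-fold, Ifi27 2.35-fold), against 15.7% of all genes. With barcodes of at least 1000 UMIs, which left 6 endothelial cells at 12 months, that Ifi27 ratio turned to 0.374. Ifit1, Ifit3 and Irf7 had 18, 8 and 5 UMIs in endothelial cells of these 3 libraries, too few for a call in any of them. Some members reached the minimum of 20 UMIs only with their endothelial UMIs. These were Ifitm2 and Bst2 in unsorted, Bst2 at 6 months and Ifitm3 at 12 months. In the comparisons below, too, a gene can reach the minimum through the group where it is high. The counts of members called, here and below, are thus a description. Of the other pathway genes, 9 of 13 tested were called higher in unsorted, and 6 of 6 at 6 months and at 12 months (Ly6e, B2m, H2-K1, H2-D1, Ly6a and Ly6c1 in both). Endothelial cells are known to express Ly6a and Ly6c1, whose UMIs there brought them past the minimum, so these counts are given as a description.

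In the endothelial series Isg15 was at 912 CPM (14 UMIs) at 6 months and 296 (7 UMIs) at 12 months, a ratio of 0.325 (0.111 to 0.86), the only 1 of 3 tested members called lower, where 4.9% of all genes were. Ifitm3 went from 1173 to 2160 CPM (ratio 1.84, 1.06 to 3.35), which is under the 2-fold mark. The 12 endothelial cells at 2 months held 25 Ifitm3 UMIs and the 13 at 2 weeks held 5, and no ratio was formed from so few cells.

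Oligodendrocytes were set against astrocyte-like cells of the same library. In unsorted, 2 of the 3 tested members were called lower, beside 18.2% of all genes: Ifitm3 at 8.81 against 161 CPM (ratio 0.0546, 0.0144 to 0.147) and Bst2 at 8.81 against 49.2 (ratio 0.179, 0.0441 to 0.543). Ifi27 was at 189 against 254 CPM, with a ratio of 0.745 (0.549 to 1.01) that was not called. Among the other pathway genes, 2 of 14 tested were called higher in oligodendrocytes (Xaf1 and Ifi27l2a), a share near the 15.3% of all genes, and 6 lower (the receptor genes Ifnar1 and Ifngr1, and B2m, H2-K1, H2-D1 and Tapbp of antigen presentation).

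GFP high and GFP low cells were then compared within a class, which asks whether the genes differ with the level of the Nestin reporter. In astrocyte-like cells (1128 and 495), Isg15 and Ifit1 were called higher in GFP high, 2 of 7 tested members, beside 2.18% of 9384 genes. Isg15 was at 42.5 CPM (46 UMIs) against 12.6 (6 UMIs), 3.36-fold (1.43 to 9.63). Ifit1 was at 69.3 CPM (75 UMIs) against 27.4 (13 UMIs), 2.53-fold (1.39 to 4.97). Ifitm3 was at 260 against 154 CPM, 1.69-fold (1.3 to 2.22), and Ifit3 at 64.7 against 44.2, 1.46-fold (0.887 to 2.51). Ifi27 (286 against 270 CPM, 1.06-fold, 0.859 to 1.31), Bst2 (68.4 against 67.4) and Ifitm2 (31.4 against 42.1) had intervals that held 1, and Irf7 had 2 and 1 UMIs. The median log2 ratio of the 7 tested members was 0.55, and that of all genes tested was -0.04. Of 30 other pathway genes tested, 3 were called higher (Ifit2, Rsad2 and Gbp2) and 1 lower (Ly6e), with a median log2 ratio of 0.18.

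For scale, the unsorted and the 2 months libraries have the same age and gate in the labels, yet their astrocyte-like cells had 290 and 563 CPM of the 7 genes, a ratio of 0.515 (0.358 to 0.753). For GFP high over GFP low that ratio was 1.54 (1.29 to 1.84), which is not further from 1 than this gap between like libraries. The sex mix of these libraries differs. Between these libraries Ifi27 was at 189 CPM in unsorted and 388 at 2 months in oligodendrocytes (ratio 0.489, 0.369 to 0.645), the 1 tested member there and called lower, beside 5.82% of all genes. In microglia 1 of 3 tested members was called lower, Ifitm3 with 104 against 279 CPM (ratio 0.374, 0.203 to 0.682), beside 6.71%. In astrocyte-like cells GFP high over unsorted called 3 of 7 members higher, beside 2.07% of all genes: Isg15 (7.77-fold, 2.03 to 66.1), Ifit3 (3.94-fold, 1.72 to 11.1) and Ifit1 (3.62-fold, 1.67 to 9.31). This comparison uses the same GFP high library as the previous one.

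The animals of a library were of both sexes in the sort experiment, so cells were split by their own UMIs, a split added after the values were seen. Among GFP high astrocyte-like cells, 101 held a Y-linked UMI and no Xist UMI, and 359 the reverse. Of 5 tested members 4 were called higher in the cells with a Y-linked UMI, where 2.06% of all genes were. Ifit1 was at 205 against 18.2 CPM (11.3-fold, 4.65 to 31.2), Bst2 at 168 against 28.7 (5.86-fold, 2.62 to 13.7), Ifit3 at 149 against 41.7 (3.58-fold, 1.68 to 7.65) and Ifitm3 at 402 against 149 (2.7-fold, 1.78 to 4.09). Ifi27 was at 392 against 219 (1.79-fold, 1.21 to 2.62), under the 2-fold mark, and Isg15 at 28 against 39.1 on 18 UMIs, too few for a call. The sum of the 7 genes was 990 against 300 CPM. In GFP low it was 399 against 313 (1.27-fold, 0.703 to 2.21) and in unsorted 217 against 267 (0.814-fold, 0.373 to 1.64), so no gap was detectable at this depth in the astrocyte-like cells of those libraries.

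Repeated within each kind of cell, GFP high over GFP low for the 7 genes was 2.48-fold (1.5 to 4.35) among cells with a Y-linked UMI and 0.958-fold (0.688 to 1.35) among cells with an Xist UMI. Ifit1 turned to 0.525-fold (0.151 to 1.89) among the latter, and Isg15 to 0.632-fold (0.0724 to 7.57) among the former. Ifitm3 was 2.59-fold (1.15 to 6.82) among the former and 1.11-fold (0.676 to 1.9) among the latter, and Isg15 6.75-fold (1.04 to 284) among the latter, on 1 UMI in GFP low. The number of animals behind these cells is not known, so sex and individual animals cannot be told apart.

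**Figure D2:**
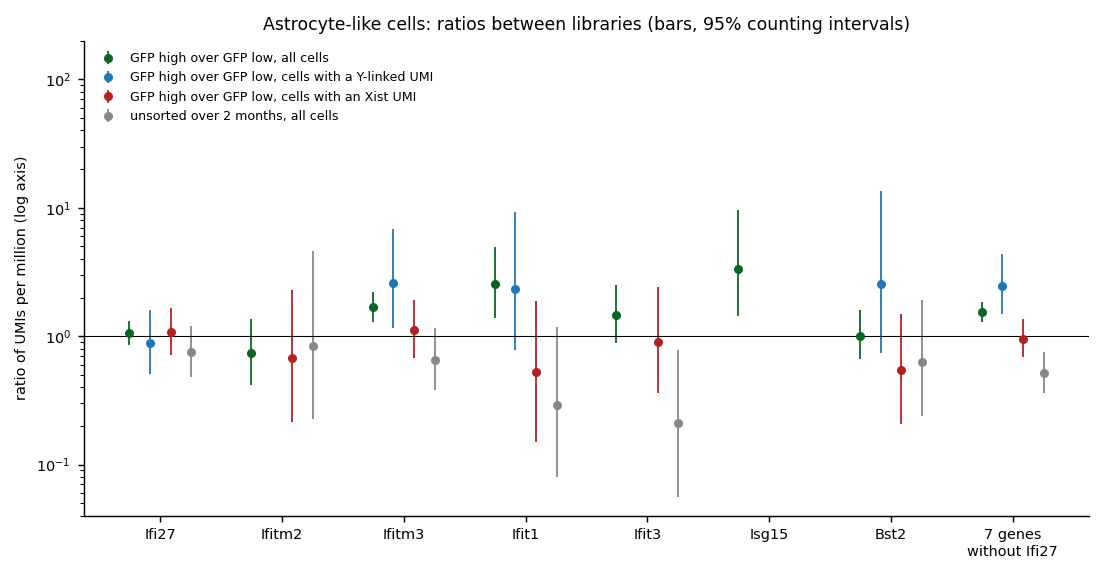
Ratios of CPM in astrocyte-like cells on a log axis, for GFP high over GFP low in all cells, in cells with a Y-linked UMI and in cells with an Xist UMI, and for unsorted over 2 months. Bars are 95% counting intervals, and ratios with fewer than 3 UMIs in either group are not drawn. The sum of the 7 genes is 1.54 in all cells, 2.48 with a Y-linked UMI and 0.958 with an Xist UMI.

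In dividing progenitors (40 in GFP high, 220 in GFP low), 2 of 3 tested members were called higher in GFP high, beside 3.2% of all genes. Ifitm3 was at 220 CPM (38 UMIs) against 52.5 (36 UMIs), 4.18-fold (2.58 to 6.79), and Bst2 at 80.9 against 33.6, 2.41-fold (1.15 to 4.89). Ifi27 was at 306 against 283 CPM, 1.08-fold (0.783 to 1.47). Ifitm2 had 10 UMIs against 2 (57.8 and 2.92 CPM), and Ifit1, Ifit3, Isg15 and Irf7 had 4 to 11 UMIs in both groups together. Of the 40 GFP high cells, 3 held 41.4% of the UMIs of the 7 genes. Without cells that held 3 or more of the 8 genes the Ifitm3 ratio was 0.77, a value that leaves cells out by the genes measured. The 7 genes were 4.6-fold (2.91 to 7.35) higher in GFP high among cells with a Y-linked UMI (9 and 41 cells) and 3-fold (1.43 to 6.24) among cells with an Xist UMI (15 and 75 cells). In unsorted over 2 months the 7 genes had a ratio of 0.29 (0.121 to 0.649) in this class.

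Age was the other comparison of the design. Ifi27 was lowest at 2 weeks in all 5 classes with at least 20 cells there and in other libraries. In astrocyte-like cells it was at 92 CPM (27 UMIs) at 2 weeks, then 340, 291 and 235 CPM in age order, and no other library of this class fell below 218. Dividing progenitors had 37.1 CPM (7 UMIs), 298 and 278 in the first 3 ages. Neuroblasts had 37.5, 353, 172 and 95.3 CPM in age order, oligodendrocytes 55.4 (3 UMIs), 388, 282 and 328, and microglia 69.5, 258, 253 and 268. In each of these 5 classes every other library, sorted ones included, lay above the 2 weeks value.

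As ratios of 2 months over 2 weeks, Ifi27 was called higher in each class. It was the 1 called member of 4 tested in astrocyte-like cells (3.7-fold, 2.07 to 6.58, beside 3.83% of all genes called), the 1 tested in dividing progenitors (8.05-fold, 3.58 to 21.2, beside 4.17%), in neuroblasts (9.42-fold, 4.8 to 20.6, beside 3.9%) and in oligodendrocytes (7-fold, 2.34 to 34.4, beside 9.73%). In microglia 3 of 3 were called, beside 4.76%: Ifi27 (3.72-fold, 1.72 to 8.67), Ifitm3 (20.1-fold, 5.04 to 174, on 2 UMIs at 2 weeks) and Bst2 (4.21-fold, 2.13 to 8.93). These comparisons share the same 2 libraries. At 12 months over 2 weeks, Ifi27 was called higher in astrocyte-like cells (2.55-fold, 1.39 to 4.65, 1 of 3 members, beside 4.62%) and microglia (3.85-fold, 1.74 to 9.16, 1 of 2, beside 4.05%). In oligodendrocytes 12 months over 2 months gave 0.845 (0.624 to 1.13) for Ifi27. The other 7 genes in astrocyte-like cells were not lowest at 2 weeks, with 368 CPM at 2 weeks against 563 at 2 months and 224 at 12 months.

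Since the 2 weeks library held only cells without Xist and the 2 months and 12 months libraries only cells without Y-linked UMIs, bar 1 UMI, age and sex cannot be told apart between these libraries. Cells with a Y-linked UMI in the 5 libraries of both sexes, all of 2 or 6 months, gave a comparison within 1 sex. Against the cells with a Y-linked UMI at 2 weeks, Ifi27 was at 369 against 108 CPM in astrocyte-like cells (3.41-fold, 1.8 to 7.11), 374 against 65.2 in dividing progenitors (5.74-fold, 2.39 to 18) and 241 against 33.2 in neuroblasts (7.26-fold, 2.22 to 37.5). Oligodendrocytes had 271 against 77.4 (3.5-fold, 1.14 to 17.5, on 3 UMIs at 2 weeks), and microglia 209 against 102 (2.04-fold, 0.59 to 7.94). The interval lay above 1 in 4 of these 5 classes, with a single library at 2 weeks. In the same cells the other 7 genes were at 714 against 492 CPM in astrocyte-like cells (1.45-fold, 1.05 to 2.04), 680 against 123 in microglia (5.54-fold, 2.23 to 16.4) and 275 against 39.1 in dividing progenitors (7.04-fold, 2.33 to 34.8, on 3 UMIs at 2 weeks). In neuroblasts their ratio was 1.17 (0.32 to 4.68), and in oligodendrocytes 3 UMIs stood against 0. Libraries of different GFP gates were pooled here, so gate is mixed into these ratios. In astrocyte-like cells 106 of the 149 UMIs of the 7 genes came from GFP high (990 CPM). There GFP low (399 CPM) and unsorted lay below the 2 weeks value, while 6 cells at 6 months had 2101 CPM of Ifitm3 alone. In dividing progenitors GFP high gave 49 of 89 UMIs (960 CPM), and GFP low had 209 CPM.

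Within libraries, Ifi27 was also compared between cells with a Y-linked and cells with an Xist UMI, where sex and individual animals cannot be told apart. Of 12 pairs of class and library with enough cells and UMIs of each kind, Ifi27 was higher in cells with a Y-linked UMI in 9, with an interval above 1 in 6 and below 1 in 1. In GFP low dividing progenitors it was at 423 against 186 CPM (2.27-fold, 1.53 to 3.42), and in oligodendrocytes at 6 months at 475 against 168 (2.82-fold, 1.23 to 6.84). The opposite was found in unsorted neuroblasts, with 41.9 (1 UMI) against 277 CPM (0.151, 0.00362 to 0.966). For the 7 other genes summed, 5 of 6 pairs were higher in cells with a Y-linked UMI, 3 with an interval above 1.

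**Figure D3:**
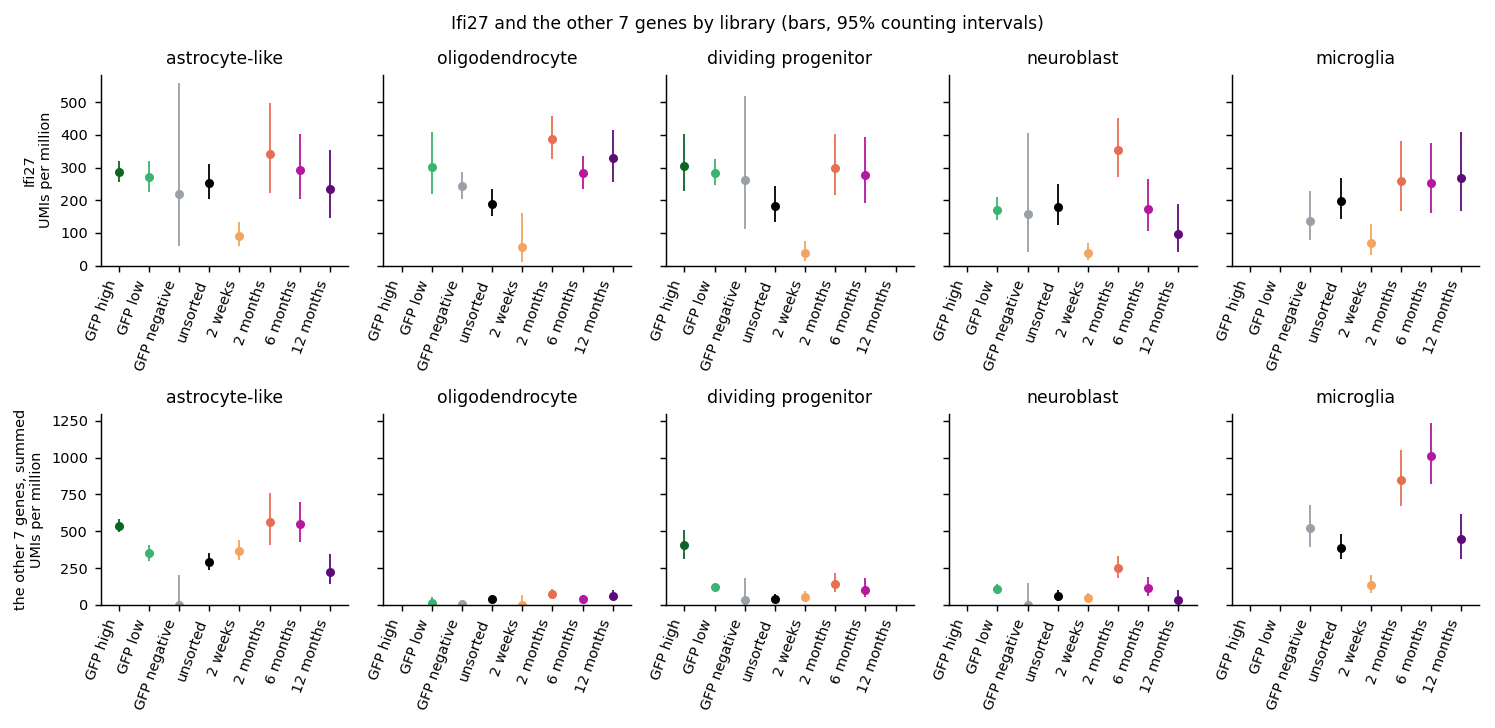
Level of Ifi27 (upper row) and of the other 7 genes summed (lower row) by library in 5 classes, in CPM, with 95% counting intervals. Ifi27 at 2 weeks is the lowest point of each class, from 37.1 to 92, while the 7 genes at 2 weeks lie inside the range of the other libraries in astrocyte-like cells and progenitors.

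The spread over cells was read from cells with at least 3 of the 7 genes, called rich cells here, a rule chosen after the values were seen. They were 39 of 2591 astrocyte-like cells (1.51%, 1.07 to 2.05). They held 29.1% of the UMIs of the 7 genes, a share that the rule itself sets. Rich cells were 20 of 128 endothelial cells (15.6%, 9.81 to 23.1), 6 of 93 pericytes and smooth muscle cells, 20 of 799 microglia (2.5%), 6 of 550 dividing progenitors, 3 of 1246 neuroblasts and 3 of 1950 oligodendrocytes (0.154%). None of 280 mature neurons was rich, which allows up to 1.31%. With cells ranked by the gene itself, in place of that rule, the 5% of GFP high astrocyte-like cells with most UMIs held 57.2% of the UMIs of the 7 genes and 49.2% of those of Ifi27, and in unsorted endothelial cells the shares were 23% and 23.5%. Such shares rise where a gene has few UMIs per cell, so they do not compare the classes. After thinning to 400 UMIs they were 59.4% and 64.2% in the former. In the latter, where the top 5% is 2 cells, they were 25.6% and 40%. The count of genes per cell is a range: 116 GFP high astrocyte-like cells held at least 2 of the 8 genes and 36 at least 3. It also moves with depth: the 21 rich GFP high astrocyte-like cells had a median of 1128 UMIs, against 816 in that class. After thinning to 400 UMIs, 26 of those 1128 cells held at least 2 of the 7 genes (2.3%, 1.51 to 3.36). None of the 21 was called a doublet, and 4 held a microglial UMI. Counting all 8 genes after thinning, 4.08% of GFP high astrocyte-like cells held at least 2 (3 to 5.4, 10.3% before thinning), as did 3.64% in GFP low, 3.01% in unsorted and 1.87% at 2 weeks. In endothelial cells the share was 34.2% in unsorted, 32% at 6 months and 32.3% at 12 months.

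**Figure D4:**
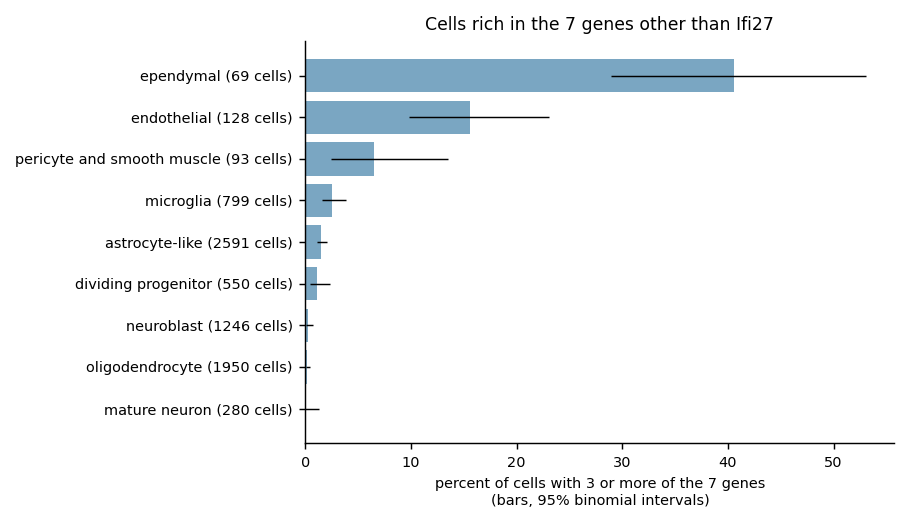
Percent of cells with 3 or more of the 7 genes in 9 classes over all libraries, with 95% binomial intervals. The share is 40.6% in ependymal cells, 15.6% in endothelial cells, 1.51% in astrocyte-like cells and 0.154% in oligodendrocytes. Cells were not thinned, and median depth was 2109 UMIs in ependymal and 640 in endothelial cells. After thinning to 400 UMIs, 26.1% (16.3 to 38.1) and 21.9% (15.1 to 30) of these held at least 2 of the 7 genes. Of the 28 ependymal cells with 3 or more, 25 were GFP high, and none of 7 in unsorted was among them. The rest were among the ependymal cells of GFP low, 2 weeks and 2 months, 2 in each library.

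Genes of the pathway that the rule for rich cells did not use were then read in the 21 GFP high astrocyte-like cells against the other 1107. Genes named here were chosen after their values were seen. By the call rule 18 of 26 tested genes were higher, beside 3.38% of all genes. Some of them reached the minimum of 20 UMIs through the rich cells (Rsad2 had 9 UMIs there and 14 in the other cells, and Oasl2 10 and 15), and Ifit3b shares sequence with Ifit3, which the rule used. Among signal carriers, Stat2 was at 230 against 29.5 CPM (7.79-fold, 2.9 to 18) and Irf9, its partner, at 164 against 27.6 (5.95-fold, 1.8 to 15.5). Among effectors, Rsad2 (viperin) was at 295 against 13.3 CPM (22.2-fold, 8.47 to 55) and Oasl2 at 328 against 14.3 (23-fold, 9.25 to 54.8). The GTPase Gbp2 was 17.8-fold (9.1 to 33.6) higher. The immunoproteasome genes Psmb8 and Psmb9 fell short of 20 UMIs and are not among the 26 tested. They were 27.6-fold (9.47 to 77.7) and 41.4-fold (10.5 to 172) higher, on 8 and 6 UMIs in the rich cells and 10 and 5 in the others. Ifi27 was 1.88-fold higher (1.06 to 3.11), at 525 against 279 CPM. The receptor genes Ifnar1 and Ifnar2 had no UMI in the 21 cells, with 53.2 and 54.2 CPM in the others and intervals that held 1. Astrocyte markers stayed present, with Aldoc at 3774 against 3812 CPM and Slc1a3 at 1641 against 2657.

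**Figure D5:**
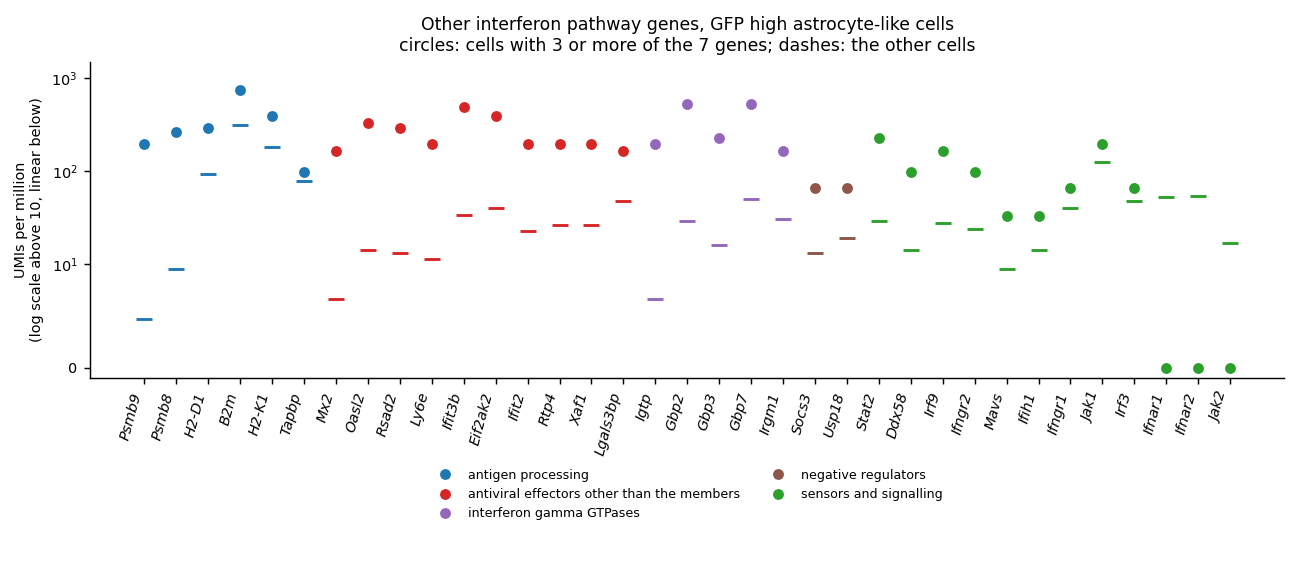
Other interferon pathway genes in GFP high astrocyte-like cells, in CPM (log scale above 10, linear below), with circles for the 21 cells holding 3 or more of the 7 genes and dashes for the other 1107. Gbp2 is at 525 against 29.5 and Rsad2 at 295 against 13.3, while Jak1 is at 197 against 126 and Ifnar1 is at 0 in the 21 cells.

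The 3 rich oligodendrocytes came from 3 libraries (unsorted, 2 months and 6 months) and held 3 Oasl2 UMIs, a level of 881 CPM against 3.16 in the other oligodendrocytes (ratio 279, 46.5 to 1220). They also held 25 UMIs each of B2m (7340 against 111 CPM) and Ifi27l2a (7340 against 49.2), and no Ifi27 UMI. In the 20 rich endothelial cells Ly6a was 2.77-fold (2.23 to 3.43) the level of the other 108, and Ly6e 1.75-fold (1.32 to 2.31). Ly6c1 was 1.15-fold (0.942 to 1.41), and 9 of 21 pathway genes measured there had an interval above 1. These cells were pooled over libraries, with 8 of the 20 from 12 months. A difference between libraries thus cannot be told apart from these ratios.

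Across all cells of a class, the 4 pathway genes with most UMIs included B2m, the light chain of class I antigen presentation, in each of the 5 classes. In astrocyte-like cells they were B2m (median 279 CPM, 184 to 406), H2-K1 (132, 92 to 267), Jak1 (130, 116 to 181) and H2-D1 (90.5, 44.3 to 252). In endothelial cells they were Ly6c1 (8389, 3975 to 8853), Ly6a (4465, 1825 to 6650), B2m (3349, 2672 to 4066) and Ly6e (2868, 2639 to 3643). Oligodendrocytes had Xaf1 (128, 0 to 248), B2m (73.9, 36 to 230), H2-D1 (28.8, 0 to 205) and Ifi27l2a (56.5, 0 to 97), the last tied at 134 UMIs with Jak1 (59.9, 21.6 to 92.4), and dividing progenitors B2m (92.3, 52.9 to 231), H2-D1 (53.5, 32.8 to 110), Jak1 (63.9, 15.9 to 78.1) and Ifnar1 (48.1, 17.4 to 65.7). For reference, microglia had B2m at 5528, Ly6e at 1400, H2-D1 at 1175 and Ifngr1 at 740. Of the interferons themselves, Ifng had 2 UMIs in all cells, and the 5 others listed gave no value.

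Ependymal cells, the ciliated lining of the ventricle, had 4230 CPM of the 7 genes in GFP high (56 cells, 3856 to 4630), an interval that overlapped that of endothelial cells at 12 months. Against astrocyte-like cells of that library 6 of 7 tested members were called higher, beside 10.8% of all genes. Isg15 was at 504 against 42.5 CPM (11.9-fold, 7.88 to 17.9), Ifitm3 at 2349 against 260 (9.05-fold, 7.61 to 10.7), Ifit3 at 468 against 64.7 and Bst2 at 495 against 68.4 (7.24-fold each), Ifi27 at 1179 against 286 (4.13-fold, 3.34 to 5.08) and Ifit1 at 279 against 69.3 (4.03-fold, 2.56 to 6.19). Ifitm2 was at 72 against 31.4 (2.29-fold, 0.917 to 5.04). The level was not the same in every library: 7 ependymal cells in unsorted held 8 UMIs of the 7 genes, 506 CPM (219 to 997), and 1 of Ifi27. It was not high in GFP high alone. All 69 ependymal cells held 622 UMIs of the 7 genes, of which GFP high held 470. Most of the others lay in GFP low, 2 weeks and 2 months, with only 2 ependymal cells each. Within GFP high, 25 of 56 cells held 77.9% of the UMIs of the 7 genes.

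Likeness to the members was taken as Pearson's r of log2(CPM + 10) over 46 pairs of library and class, across 8771 genes, as a description, since the pairs share libraries and depth. The genes outside the members most like their summed level were Tspo (0.84), Gm7676 (0.76), Laptm4a (0.75), Anxa2 (0.74) and H2-D1 (0.74). Among the members, Ifitm3 and Isg15 had 0.89, and Ifi27 had 0.42 to 0.60 with each of 6 others.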

How the data were processed

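Single cells of the subventricular zone were profiled by Drop-seq. The authors deposited 1 table per library, in which each value is the UMI count of a gene in a barcode, whole and not normalized. Per the submitters' processing notes the builds were mm10 and GRCm38. For the aligner, counting program and barcode rule, the name was not given in the sources used here. Pooled tables of several samples, 3 in number, were not used. Barcodes with at least 400 UMIs were kept. A cell took a class where that class's marker sum was at least 3 UMIs over at least 2 markers and at least 2 times the next class. The marker lists, 66 pathway genes (61 in the files) and the members were chosen with earlier results of these data known, as was the rule that every member is named. Values of 1 pathway gene are not reported here. Classes rest on these rebuilt names. Doublets were called by Scrublet in scanpy 1.11.5 at an expected 5% (90 cells, which were kept). Within libraries 53 pairs of barcodes differed at 1 base and were left as they were. Levels carry exact Poisson intervals, shares exact Clopper-Pearson intervals and ratios exact conditional binomial intervals, all at 95% and for counting error only. Ratios used pooled counts. Thinning drew 400 UMIs per cell without replacement. Ratio intervals were tested on simulated data. Alternatives were another minimum depth, stricter classes, every other marker of each list, doublets or cells with microglial UMIs left out, means over cells, and at least 50 UMIs per tested gene, other depths of thinning, cells with 3 or more of the 8 genes left out, and cells split by sex markers (added after seeing the data, as were the ratios of 2 months over 2 weeks and of endothelial over astrocyte-like cells). Python 3.11.15, numpy 2.4.6, scipy 1.17.1 and pandas 2.3.3 were used.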

Additional observations from a re-analysis of the deposited data

Results flagged for a closer look

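The 8 genes were also seen in barcodes that no comparison used. In 1917 barcodes under 400 UMIs they summed to 576 CPM (327 UMIs, 515 to 642), where a count of 0 would allow 5.28. In 1177 cells that took no class they summed to 356 CPM (659 UMIs, 330 to 385), where a count of 0 would allow 1.62. These values say only that UMIs were present, not whether the level differs from that of free RNA or of the classed cells.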

How the results depend on the processing

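Of 94 alternative values of the 12 main results, 76 stayed within the counting interval and 18 moved, with none reversed, and of 323 values for 43 other results 300 stayed, 19 moved and 4 reversed. The summed level of the 8 genes in unsorted went from 3078 CPM in endothelial cells to 1285 with at least 1000 UMIs per barcode (8 cells), 2216 without cells holding 3 or more of the genes and 2097 in cells with a Y-linked UMI (5 cells). In astrocyte-like cells it went from 544 to 452 with at least 1000 UMIs and 425 without cells holding 3 or more genes, in oligodendrocytes from 231 to 155 (Y-linked UMI) and 185 (Xist UMI), and in microglia from 588 to 486 without cells holding 3 or more, 712 (Y-linked) and 453 (Xist). GFP high over GFP low for the 8 genes went from 1.33 to 1.64 (Y-linked) and 1.01 (Xist) in astrocyte-like cells, and from 1.76 to 1.22 (without cells holding 3 or more) and 2.2 (Y-linked) in dividing progenitors. The share of GFP high astrocyte-like cells with 2 or more of the genes went from 4.08% to 5.94% (Y-linked), 1.39% (Xist), 10.3% (no thinning) and 10.1% (thinning to 800 UMIs). The reversed values were Ifit1 (0.525, Xist) and Isg15 (0.632, Y-linked) for GFP high over GFP low in astrocyte-like cells, Ifitm3 in dividing progenitors (0.77, without cells holding 3 or more genes, which leaves cells out by the genes measured) and Ifi27 in endothelial over astrocyte-like cells at 12 months (0.374, at least 1000 UMIs). The cause was not tested. Endothelial cells at 2 months over 2 weeks gave no ratio, with 12 and 13 cells. Few UMIs per cell limit most values of Irf7, Ifit1, Ifit3 and Isg15. No paired analysis was possible because each group was 1 library.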
